A study of Mus musculus with 6 samples.

Results

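The genes of the aggrecan and hyaluronan network, 9 in all, were taken by symbol: the large hyaluronan-binding proteoglycans Acan and Vcan, the link proteins Hapln1 and Hapln3, the lubricating proteoglycan Prg4, the hyaluronan synthases Has1, Has2 and Has3, and the hyaluronan receptor Cd44. All 9 were found among the 43472 gene symbols of the count files, and all 9 passed the filter on low counts, which left 16152 genes. RNA was sequenced from whole intervertebral discs (IVDs) of C57B6/J mice at postnatal day 20, before overt histopathology, to see what loss of the adhesion receptor Adgrg6 does to gene expression in the disc. The 3 mutant libraries are from Col2Cre;Adgrg6 f/f mice, in which Cre removes the floxed Adgrg6 allele, and the 3 control libraries are from mice whose genotype is labelled wild type, titled Col2Cre controls and described by the study as Cre (-) littermates. Each library is 1 pool of discs from T8 to L5 of 2 to 3 mice. Col2Cre recombines in the whole disc and also in periosteum and trabecular bone, so the mutation is not limited to 1 disc compartment. In bulk tissue, fewer cells of a type and less RNA per cell cannot be told apart, and p-values here measure the spread between pools.

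Hyaluronan is a long unbranched sugar chain made at the plasma membrane by the Has enzymes and extruded into the matrix. In cartilage and disc, many aggrecan molecules bind along 1 hyaluronan chain, link protein locks each of them in place, and the sulfated side chains of aggrecan draw in the water that lets the tissue bear compression. Versican binds the same chain in looser and younger matrix, lubricin coats sliding surfaces, and CD44 tethers hyaluronan to cells and takes it up.

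Each library held between 9061491 and 12017008 counts on genes. Adgrg6, listed by its older symbol Gpr126, was at 124, 108 and 94.3 counts per 1000000 counts (CPM) in control pools 1, 2 and 3 and at 138, 124 and 106 CPM in mutant pools 1, 2 and 3, but counts over the whole gene do not measure the deleted part. CPM are given after TMM scaling, which evens out differences in composition between libraries. Control pool 1 stood apart by 7 skeletal muscle genes, which summed to 3832 CPM there and to 70.0 to 164 CPM elsewhere. Cartilage markers were present in all libraries, at 75011 to 130432 CPM in control and 110836 to 136111 CPM in mutant pools for a sum of 8 genes that is mostly Col2a1. Col2a1 and Sox9 had positive log2 fold changes and the other 6 genes negative ones, with a median of -0.24 over the 8 and Matn3 (-0.78) at an unadjusted p under 0.05. Notochord and nucleus pulposus markers, 8 genes, summed to 2124 to 4612 CPM in control and 2830 to 5562 CPM in mutant pools, and T, Krt8, Krt18, Krt19 and Car3 were present in every library, while Noto had 1 count in all libraries together. Tendon and outer annulus markers were higher in mutant pools in 7 of 8 genes, 3 of them at an unadjusted p under 0.05. Their sums, mostly Col1a1 and Col1a2, were 10626 to 25975 CPM in control and 22936 to 40965 CPM in mutant pools. Markers of superficial cartilage and synovial lining summed to 86.6 to 118 CPM in control and 132 to 147 CPM in mutant pools, and 5 of 6 were higher. All 8 neutrophil precursor genes and all 8 red cell precursor genes had positive log2 fold changes, with sums of 16.2 to 59.3 and 40.1 to 344 CPM in control against 32.7 to 153 and 215 to 452 CPM in mutant pools. Macrophage markers summed to 53.8 to 75.9 CPM in control and 58.4 to 114 CPM in mutant pools, and 7 of 8 were higher. Endothelial markers summed to 152 to 290 CPM in control and 237 to 264 CPM in mutant pools, and 6 of 7 were higher. Osteoblast markers summed to 770 to 1221 CPM in control and 876 to 1144 CPM in mutant pools, with 4 of 7 genes higher. The osteocalcin genes Bglap and Bglap2 were above all controls in every mutant pool (log2 fold changes of 1.64 and 1.31), and Phex was lower (-0.81), each at an unadjusted p under 0.05.

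The genes of the large hyaluronan-binding proteoglycans and of the link proteins lie in pairs in the mouse genome (GRCm38, GENCODE M21). Acan occupies chr7:79053483-79115099 on the plus strand, and Hapln3 occupies chr7:79115102-79131018 on the minus strand, so that the 2 genes run towards each other and end 2 bases apart. Hapln1 (chr13:89539796-89611652, plus strand) and Vcan (chr13:89655312-89742509, minus strand) also converge, with 43659 bases and no coding gene between them. The paralogs Bcan and Hapln2 are 21519 bases apart on chromosome 3, and Ncan and Hapln4 are 2222 bases apart on chromosome 8. Prg4 is on chr1:150449412-150466165, Cd44 on chr2:102811141-102901665, Has1 on chr17:17843323-17855205 and Has2 on chr15:56665627-56694539, all on the minus strand, and Has3 is on chr8:106870242-106884566 on the plus strand. The 3 synthases are on different chromosomes.

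RefSeq (GRCm38.p6) gave the 250 bases before the start for 6 of the 9 genes, and 4 are printed. Acan and Hapln3 are shown as neighbours in the genome, Hapln1 as the abundant link protein, and Has1 for the largest fold change of the 9 genes. The windows are chr7:79052976-79053225 (plus) for Acan, chr7:79131019-79131268 (minus) for Hapln3, chr13:89540386-89540635 (plus) for Hapln1 and chr17:17855189-17855438 (minus) for Has1. The RefSeq starts of Acan, Hapln1 and Has1 differ from the outermost GENCODE ends given above. Each is written 5′ to 3′ towards the gene, and capitals mark any of 6 motifs on either strand. These are the GC box GGGCGG, the SOX protein core ACAAT, its variant with the letters ACAAAG, the TATA box with the letters TATAAA, the AP-1 site TGACTCA, and the cAMP response element, whose letters are TGACGTCA.
Acan: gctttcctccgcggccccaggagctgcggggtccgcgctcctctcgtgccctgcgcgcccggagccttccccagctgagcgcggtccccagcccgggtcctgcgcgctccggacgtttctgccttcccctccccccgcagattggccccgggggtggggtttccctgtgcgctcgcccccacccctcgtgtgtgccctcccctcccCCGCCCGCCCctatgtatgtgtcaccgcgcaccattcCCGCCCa
Hapln3: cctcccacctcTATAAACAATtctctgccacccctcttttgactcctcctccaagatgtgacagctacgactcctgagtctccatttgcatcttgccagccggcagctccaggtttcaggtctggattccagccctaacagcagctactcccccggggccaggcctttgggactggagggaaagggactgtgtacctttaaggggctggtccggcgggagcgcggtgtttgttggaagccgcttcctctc
Hapln1: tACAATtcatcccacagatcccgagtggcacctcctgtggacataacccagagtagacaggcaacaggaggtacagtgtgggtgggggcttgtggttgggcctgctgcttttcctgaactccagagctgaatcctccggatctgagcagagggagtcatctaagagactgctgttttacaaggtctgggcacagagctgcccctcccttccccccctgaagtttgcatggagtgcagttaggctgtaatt
Has1: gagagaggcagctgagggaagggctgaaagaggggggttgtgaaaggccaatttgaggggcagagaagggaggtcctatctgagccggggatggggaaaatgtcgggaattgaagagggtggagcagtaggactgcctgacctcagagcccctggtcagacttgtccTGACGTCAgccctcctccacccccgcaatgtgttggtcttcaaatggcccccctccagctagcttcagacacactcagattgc
The Acan window held 3 GC boxes, all read on the opposite strand and the first overlapping the second, and 26 CpG, more than in 90.4% of 32851 promoter windows of this length. Hapln1 had 2 CpG and 1 SOX core, at the upstream edge of its window, while Hapln3 had 8 CpG and, in 1 run that shares a base, a TATA box and a SOX core, which begin 239 and 234 bases before its start. Has1 held 1 cAMP response element, which begins 83 bases before its start. Of all windows, 32.7% held a GC box, 27.7% the SOX core, 16.5% its variant, 12.4% a TATA box, 4.46% an AP-1 site and 1.55% a cAMP response element. A match says only that these letters are present.

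Per length, aggrecan was by far the most abundant of these transcripts. In control IVDs the levels, in CPM per kb of exon, followed the order Acan (691 ± 58.9, SD, n = 3), Hapln1 (164 ± 30.7), Prg4 (80.2 ± 41.7), Vcan (15.7 ± 5.39), Hapln3 (6.12 ± 1.12), Has3 (3.84 ± 0.599), Has2 (3.38 ± 0.179), Cd44 (2.47 ± 0.171) and Has1 (1.48 ± 0.495). Acan was 4.22 times Hapln1 there, and each neighbour in this order was separate in every control pool except Has3 and Has2, whose ranges of 3.48 to 4.53 and 3.21 to 3.56 overlapped. In mutant IVDs the first 6 genes held the same order, from Acan at 563 ± 102 (n = 3) to Hapln3 at 8.79 ± 0.663 and Has3 at 3.64 to 4.69. The last 3 were rearranged into Cd44 (3.64 ± 0.554), Has1 (2.81 ± 1.28) and Has2 (2.28 ± 0.523), and from Has3 downwards each neighbouring pair overlapped. As a floor, 1574 odorant and vomeronasal receptor genes, which a disc is not known to use, had a 99th percentile of 0.0728 to 0.491 CPM per kb in the 6 libraries, under the lowest level of any of the 9 genes, 1.04 for Has1 in control pool 3. This floor was not even between the groups, since the receptor genes summed to 22.4, 66.9 and 129 CPM in control pools 1, 2 and 3 and to 15.7 to 29.8 CPM in mutant pools. By CPM, Acan made up 76.1% of the sum of the 9 genes in control and 76.8% in mutant IVDs, and Hapln1 14.3% and 13.6%.

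**Figure D1:**
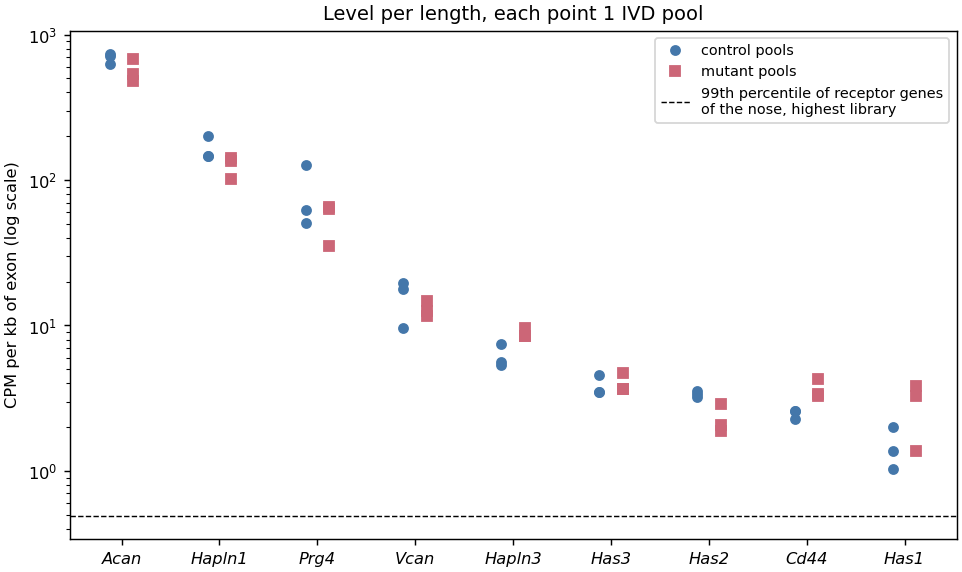
Level of each gene in CPM per kb of exon on a log axis, with each point 1 IVD pool (blue circles control, red squares mutant) and the dashed line the highest 99th percentile of receptor genes of the nose, 0.491. All points lie above the line, from 731 for Acan in control pool 1 to 1.04 for Has1 in control pool 3.

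Between mutant and control pools, 4 of the 9 genes passed an unadjusted p under 0.05 in the quasi-likelihood test of edgeR. Hapln3, Has1 and Cd44 were higher and Has2 was lower in mutant IVDs. Of all 16152 genes, 2.89% were higher and 4.32% lower at this threshold. No member passed after Benjamini-Hochberg adjustment over all genes, where 1 gene, the protease gene Prss50, did (0.00619% of genes, log2 fold change -1.87, adjusted p = 0.0419 by edgeR), so none of the 9 differences holds up against the number of genes tested. The median log2 fold change was -0.27 over the 9 genes and -0.01 over all genes tested. All mutant pools lay above all control pools for 2 members (Hapln3 and Cd44) and below them for 2 (Hapln1 and Has2), against 5.45% and 5.96% of all genes. The count of 4 changed with single libraries. It was 5 without control pool 1, the pool with muscle RNA, 0 without control pool 2 and 1 without control pool 3. It was 3 without mutant pool 1 and 2 without mutant pool 2 or mutant pool 3. All genes at this threshold numbered 1164 of 16152, and 2427 of 17164, 929 of 16610 and 618 of 16388 without control pools 1, 2 and 3. Without mutant pools 1, 2 and 3 they numbered 817 of 17179, 1669 of 17095 and 874 of 17142. Without control pool 2 the log2 fold changes were 0.50 for Cd44, 0.46 for Hapln3, 0.89 for Has1 and -0.53 for Has2. With all libraries they were 0.56, 0.52, 0.94 and -0.56. Scaling to library totals in place of TMM lowered the median log2 fold change of all genes by 0.12, and 2 members passed.

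**Figure D2:**
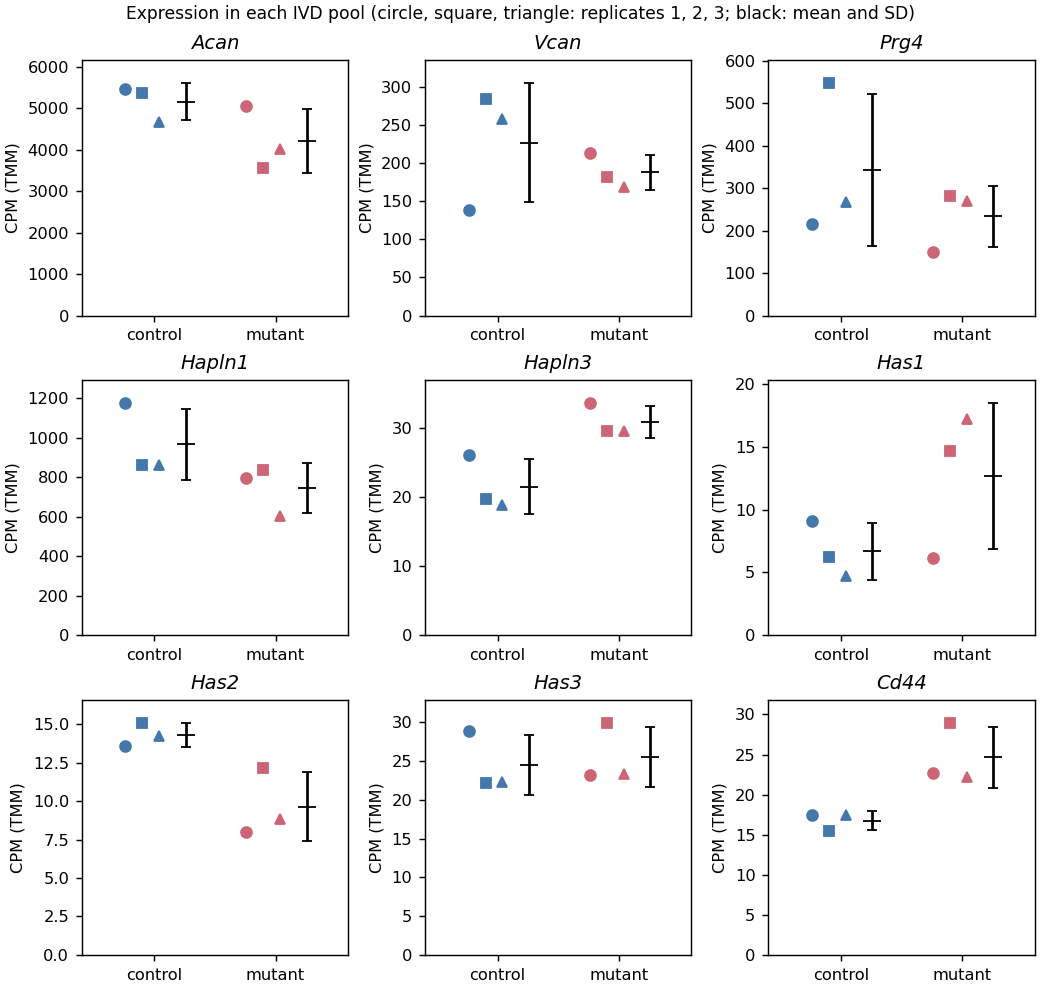
CPM of each gene in the 3 control (blue) and 3 mutant (red) IVD pools, with circles, squares and triangles for replicates 1, 2 and 3 and black bars for the mean and SD. Hapln3 and Cd44 are above all controls in every mutant pool, Hapln1 and Has2 are below, and the other 5 genes overlap.

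Acan, the core protein of aggrecan, was at 5462, 5359 and 4654 CPM in control pools 1, 2 and 3 and at 5054, 3565 and 4007 CPM in mutant pools 1, 2 and 3. Mutant pools 2 and 3 were below every control, and mutant pool 1 lay inside the control range. The means were 5158 ± 440 CPM in control and 4208 ± 765 CPM in mutant IVDs (SD, n = 3 each), and the log2 fold change was -0.29 (SE 0.27, 95% interval -0.89 to 0.30, unadjusted p = 0.299, adjusted p = 0.825). The interval runs from 0.539 to 1.23 times the control level. Scaled to library totals alone, the groups did not overlap, at 5312 to 5356 CPM in control and 3635 to 4502 CPM in mutant pools, and the log2 fold change of -0.41 still did not pass (unadjusted p = 0.107). It was -0.17 without mutant pool 2 (unadjusted p = 0.577) and -0.41 without mutant pool 1 (unadjusted p = 0.176). Aggrecan was counted from 37713 to 59537 reads per library. As given above, 6 of 8 cartilage markers also had negative log2 fold changes, and the part of cartilage cell content in the Acan and Hapln1 values was not tested.

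Vcan, the core protein of versican, was at 138, 285 and 257 CPM in control pools 1, 2 and 3 and at 214, 182 and 168 CPM in mutant pools 1, 2 and 3. The mutant values were close together and inside the control range, since control pool 1 was the lowest of the 6. With all libraries the log2 fold change was -0.27 (SE 0.26, 95% interval -0.86 to 0.31, unadjusted p = 0.326). Without control pool 1 it was -0.51 (unadjusted p = 0.0286, adjusted p = 0.279), and without control pool 2 it was -0.08. Gm4117, an antisense gene in Vcan that shares no exonic base with it, had 1340 counts over the 6 libraries against 12838 for Vcan.

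Hapln1, the cartilage link protein that fixes aggrecan to hyaluronan, was at 1176, 862 and 861 CPM in control pools 1, 2 and 3. It was at 796, 836 and 602 CPM in mutant pools 1, 2 and 3, each below every control, with the nearest values 836 CPM in mutant pool 2 and 861 CPM in control pool 3. The means of 966 ± 181 and 745 ± 125 CPM (SD, n = 3 each) gave a log2 fold change of -0.38 (SE 0.23, 95% interval -0.89 to 0.14, unadjusted p = 0.137, adjusted p = 0.765). Without control pool 1 the difference was -0.19 (unadjusted p = 0.443).

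Hapln3, a link protein expressed more widely and the neighbour of Acan, was at 26.0, 19.7 and 18.8 CPM in control pools 1, 2 and 3 and at 33.6, 29.5 and 29.5 CPM in mutant pools 1, 2 and 3. Every mutant pool was above every control pool, by TMM and by library totals. The mean of 30.9 ± 2.33 CPM in mutant against 21.5 ± 3.92 CPM in control IVDs (SD, n = 3 each) is a log2 fold change of 0.52 (SE 0.19, 95% interval 0.11 to 0.94), or 1.44-fold, with an unadjusted p = 0.0181 and an adjusted p = 0.676. The difference was 0.44 to 0.70 with any 1 library left out, and the unadjusted p was 0.0617 and 0.0613 without control pool 2 and control pool 3. Hapln3 rested on 177 to 362 counts per library.

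Prg4, which encodes lubricin, was the most variable of the 9 genes among control pools, with an SD of 52.0% of the mean. It was at 215, 547 and 267 CPM in control pools 1, 2 and 3 and at 151, 280 and 270 CPM in mutant pools 1, 2 and 3. Control pool 2 alone stood high, and the other 5 pools ranged from 151 to 280 CPM. The log2 fold change of -0.55 (SE 0.36, 95% interval -1.35 to 0.24, unadjusted p = 0.153) became -0.05 (unadjusted p = 0.874) without control pool 2 and -0.78 (unadjusted p = 0.0407, adjusted p = 0.32) without control pool 1. Tpr, a nuclear pore gene on the opposite strand that shares 204 exonic bases with Prg4, had 3986 counts over the 6 libraries against 17661 for Prg4 and a log2 fold change of -0.07. The summed markers of superficial cartilage and synovial lining, given above, were higher in every mutant pool, and their part in the Prg4 values was not tested.

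**Figure D3:**
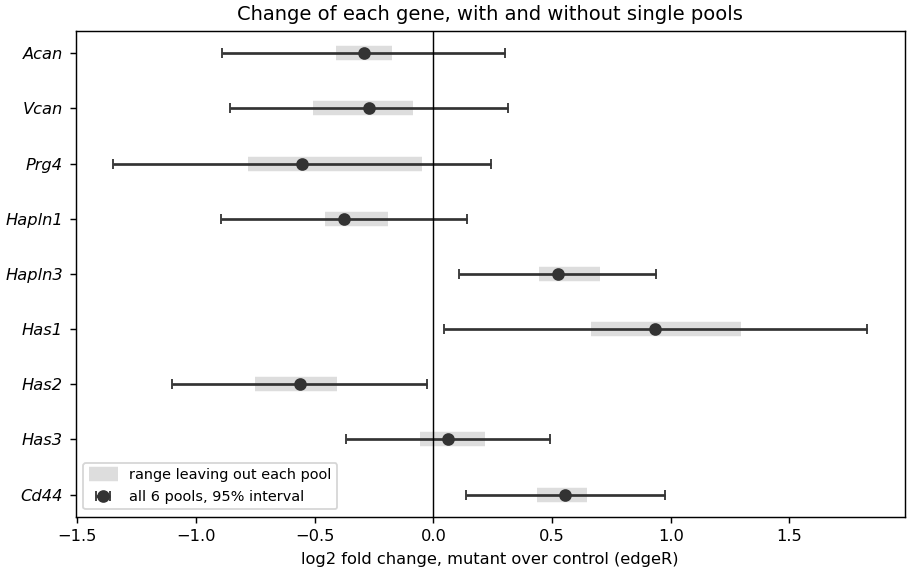
Log2 fold change of each gene, mutant over control, with its 95% interval from edgeR over all 6 pools (black) and the range of the estimate with each pool left out in turn (grey). The intervals of Hapln3, Has1 and Cd44 lie above 0 and that of Has2 lies below it, while the grey bar of Prg4 reaches from -0.78 to -0.05.

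Of the 3 hyaluronan synthases, Has2 and Has1 passed the unadjusted threshold, with log2 fold changes of opposite sign, and Has3 did not. Has2, the synthase that cartilage depends on during skeletal development, was at 13.6, 15.1 and 14.2 CPM in control pools 1, 2 and 3 and at 7.97, 12.2 and 8.82 CPM in mutant pools 1, 2 and 3. All mutant pools were below all controls, and the controls were close together. The means of 14.3 ± 0.757 and 9.65 ± 2.22 CPM (SD, n = 3 each) gave a log2 fold change of -0.56 (SE 0.24, 95% interval -1.10 to -0.03), or 0.677 times the control level, with an unadjusted p = 0.0414 and an adjusted p = 0.686. The unadjusted p was 0.0621 by DESeq2, 0.0631 with no filter on low counts and 0.0663 to 0.150 when any 1 library other than mutant pool 2 was left out. The log2 fold changes in these fits were -0.56, -0.54 and -0.58 to -0.41. Without mutant pool 2 the log2 fold change was -0.75 (unadjusted p = 0.015 by edgeR). Has2 rested on 70 to 182 counts per library.

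Has2os, an antisense RNA on the opposite strand, shares 182 exonic bases with it. The library kit does not mark strand, so reads in those bases cannot be assigned to one gene or the other. Has2os had more counts than Has2 in all 6 libraries, 2.43, 1.96 and 2.22 times as many in control pools 1, 2 and 3 and 2.54, 2.93 and 3.14 times as many in mutant pools 1, 2 and 3. This ratio, singled out after its values were seen and not tested, was higher in each mutant pool than in each control pool. Has2os itself was at 31.4 ± 1.78 CPM in control and 27.9 ± 7.66 CPM in mutant IVDs (SD, n = 3 each), and its log2 fold change was -0.17 (SE 0.21, unadjusted p = 0.442 by edgeR).

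Has1, the synthase with the lowest level per length in control but not in mutant IVDs, was at 9.10, 6.22 and 4.69 CPM in control pools 1, 2 and 3 and at 6.15, 14.7 and 17.2 CPM in mutant pools 1, 2 and 3. Mutant pools 2 and 3 were above every control, while mutant pool 1 lay inside the control range. The log2 fold change was 0.94 (SE 0.40, 95% interval 0.04 to 1.83), or 1.91-fold, with an unadjusted p = 0.0415 and an adjusted p = 0.686. The unadjusted p was 0.065 with library totals and 0.0927, 0.124, 0.107 and 0.18 without control pool 2, control pool 3, mutant pool 2 and mutant pool 3. The log2 fold changes in these fits were 0.86, 0.89, 0.74, 0.83 and 0.66. Without control pool 1 the log2 fold change was 1.25 (unadjusted p = 0.0154 by edgeR). Without mutant pool 1 it was 1.30 (unadjusted p = 0.00346 by edgeR). The summed tendon and outer annulus markers, mostly Col1a1 and Col1a2, were also highest in mutant pools 2 and 3. They were at 40965 and 36589 CPM there, against 10626 to 25975 CPM in the other 4 pools. Taken singly, Tnmd, Thbs4 and Fmod were likewise highest in both of these pools, but Scx, Mkx and Kera were not. Scx was at 35.4 CPM in mutant pool 2 against 60.8 CPM in control pool 2. The part of tendon and outer annulus cells in the Has1 values was not tested. Has1 rested on 54 to 180 counts per library.

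Has3, which makes shorter hyaluronan chains, had the log2 fold change nearest 0. It was at 28.9, 22.2 and 22.4 CPM in control pools 1, 2 and 3 and at 23.2, 29.9 and 23.4 CPM in mutant pools 1, 2 and 3. The groups overlapped, and the log2 fold change of 0.06 (SE 0.19, 95% interval -0.37 to 0.49, unadjusted p = 0.755) turned to -0.04 with library totals. Chtf8, on the opposite strand, shares 352 exonic bases with Has3 and had 4015 counts over the 6 libraries against 1547 for Has3.

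Cd44, the cell surface receptor for hyaluronan, had the smallest p of the 9 genes. It was at 17.4, 15.4 and 17.4 CPM in control pools 1, 2 and 3 and at 22.8, 29.0 and 22.2 CPM in mutant pools 1, 2 and 3. Every mutant pool was above every control pool, and the controls spanned a narrow range. The means of 16.8 ± 1.16 and 24.6 ± 3.76 CPM (SD, n = 3 each) gave a log2 fold change of 0.56 (SE 0.19, 95% interval 0.14 to 0.97), or 1.47-fold, with an unadjusted p = 0.0142 and an adjusted p = 0.676. The unadjusted p was 0.068 with library totals, 0.054 without control pool 2 and 0.0557 without mutant pool 2. The log2 fold changes in these fits were 0.44, 0.50 and 0.44. Blood and immune cells also carry CD44. The neutrophil precursor sum was highest in mutant pool 1, at 153 CPM, where Cd44 was 22.8 CPM, and was 54.3 CPM in mutant pool 2, where Cd44 was highest. The red cell precursor sum was highest in mutant pool 2, at 452 CPM, against 278 and 215 CPM in mutant pools 1 and 3 and 40.1 to 344 CPM in control pools. The macrophage sum was 114, 58.4 and 77.5 CPM in mutant pools 1, 2 and 3 and 53.8 to 75.9 CPM in control pools. Of its genes, Cd68 was at 3.60 to 5.46 CPM in control and 7.67 to 7.85 CPM in mutant pools (unadjusted p = 0.0401 by edgeR). The other macrophage genes overlapped between the groups, and Adgre1 had a negative log2 fold change (-0.56). The tendon and outer annulus sum, mostly Col1a1 and Col1a2, was also highest in mutant pool 2, at 40965 CPM. The part of these cells was not tested.

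Ratios within a library need no scaling between libraries, and 5 were compared by a two-sided exact permutation test, which with 3 against 3 pools cannot give a p below 0.1. The log2 ratio of Hapln3 to Hapln1 counts was -5.50, -5.45 and -5.51 in control pools 1, 2 and 3 and -4.56, -4.82 and -4.35 in mutant pools 1, 2 and 3. The control pools agreed to within an SD of 0.0309. The mutant mean was higher by 0.91 (exact permutation p = 0.1, 0.25 adjusted over the 5 ratios). Hapln3 lay above and Hapln1 below all controls in every mutant pool, by TMM and by library totals. This ratio therefore had to separate, and its p adds nothing to the values of the 2 genes. The log2 ratio of Has3 to Has2 was 1.09, 0.55 and 0.65 in control pools 1, 2 and 3 and 1.54, 1.30 and 1.40 in mutant pools 1, 2 and 3, again with no overlap and a difference of 0.65 (exact permutation p = 0.1, adjusted 0.25). For these 2 ratios the p is the smallest the design allows.

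The ratios to aggrecan overlapped between the groups. The log2 ratio of Vcan to Acan was -4.57 ± 0.64 in control and -4.48 ± 0.16 in mutant IVDs (SD, n = 3 each), a difference of 0.09 (exact permutation p = 1.0). That of Hapln1 to Acan was -2.43 ± 0.21 and -2.50 ± 0.35, a difference of -0.07 (exact permutation p = 0.8, n = 3 each). That of Prg4 to Acan was -4.03 ± 0.69 and -4.21 ± 0.75, a difference of -0.18 (exact permutation p = 0.8, n = 3 each), and each of these 3 differences changed sign when certain single pools were left out. The log2 ratio of Has1 to Has2, chosen after the values were seen and given with no test, was -0.58, -1.27 and -1.59 in control pools 1, 2 and 3 and -0.37, 0.27 and 0.96 in mutant pools 1, 2 and 3.

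**Figure D4:**
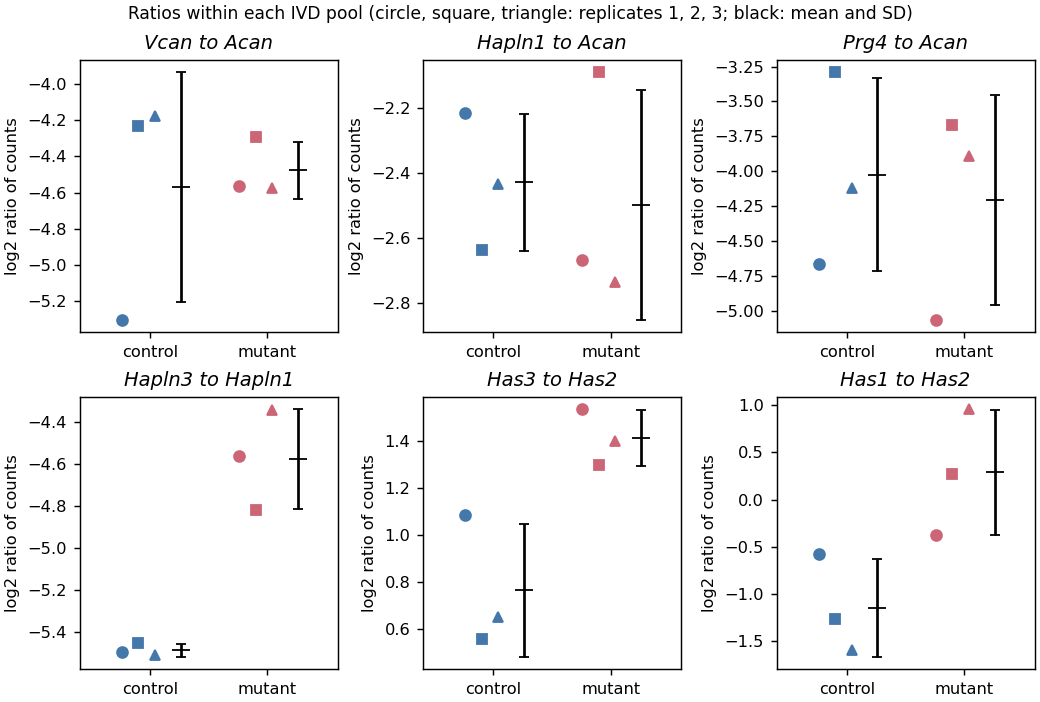
Log2 ratio of counts of 2 genes within each IVD pool, with circles, squares and triangles for replicates 1, 2 and 3 in control (blue) and mutant (red) and black bars for the mean and SD; the axes do not start at 0. The ratio of Hapln3 to Hapln1 is -5.51 to -5.45 in control and -4.82 to -4.35 in mutant pools, and the ratios to Acan overlap.

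Of 45 other genes of hyaluronan and the lecticans, 40 were tested, and 2 were higher and 1 was lower at an unadjusted p under 0.05, none after adjustment. This is 7.5% of those tested, close to the 7.21% of all genes at that threshold. Their median log2 fold change was 0.08, with 22 above and 18 below 0, and the count of 3 became 1 without control pool 3 and 6 without control pool 1. The count over all genes also fell without control pool 3 and rose without control pool 1, as given above. Itih5, an inter-alpha-trypsin inhibitor heavy chain of the family that is coupled to hyaluronan, was at 21.1, 22.0 and 19.0 CPM in control pools 1, 2 and 3 and at 21.6, 37.2 and 46.1 CPM in mutant pools 1, 2 and 3. Mutant pools 2 and 3 were above every control, as for Has1, and the log2 fold change was 0.76 (SE 0.26, unadjusted p = 0.0136, adjusted p = 0.676 by edgeR). The summed tendon and outer annulus markers, mostly Col1a1 and Col1a2, were highest in the same pools (40965 and 36589 CPM). Scx, Mkx and Kera taken singly were not, and the part of these markers in the Itih5 values was not tested. Bcan, the core protein of brevican known from brain, was at 3.45 ± 1.44 CPM in control and 6.79 ± 1.53 CPM in mutant IVDs (SD, n = 3 each), with a log2 fold change of 0.98 (SE 0.42, unadjusted p = 0.0423 by edgeR). Its lowest library, control pool 3, held 1.88 CPM or 0.462 CPM per kb, which is not above the 99th percentile of the receptor genes there (0.491). With 0.85 CPM per kb in control IVDs it was the highest per length of the lecticans and link proteins outside the 9 genes. Hyal2, a hyaluronidase at the cell surface, was at 27.1, 39.7 and 29.2 CPM in control pools 1, 2 and 3 and at 22.3, 20.3 and 26.8 CPM in mutant pools 1, 2 and 3, each below every control, with a log2 fold change of -0.47 (SE 0.20, unadjusted p = 0.0427 by edgeR) that was -0.29 without control pool 2 (unadjusted p = 0.195).

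The other groups gave no gene at that threshold beyond these. Among 10 turnover genes, 8 were tested, 3 were above 0 and 5 below, and Hexa, a lysosomal hexosaminidase subunit and the highest per length at 86.3 and 72.4 CPM per kb in control and mutant IVDs, differed by -0.25 on the log2 scale (unadjusted p = 0.187). Of 17 receptors and binding proteins, 15 were tested, 8 were above 0 and 7 below, with a median of 0.03, and Habp4, the highest per length at 5.06 and 4.96 CPM per kb, differed by -0.03 (unadjusted p = 0.854). The 7 genes that supply the sugar nucleotides of hyaluronan were all tested and 6 were above 0, with a median log2 fold change of 0.18. Uap1, which makes UDP-N-acetylglucosamine and was the highest of them per length, was at 74.5 ± 6.34 CPM in control and 94.4 ± 7.43 CPM in mutant IVDs (SD, n = 3 each), a log2 fold change of 0.34 (unadjusted p = 0.0604 by edgeR). Among the 7 proteases that cleave aggrecan and versican, 4 were above 0 and 3 below, with a median of 0.22, and Adamts1, the highest per length, was at 16.5 ± 7.38 and 26.3 ± 13.6 CPM (SD, n = 3 each), a log2 fold change of 0.67 (unadjusted p = 0.115 by edgeR).

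**Figure D5:**
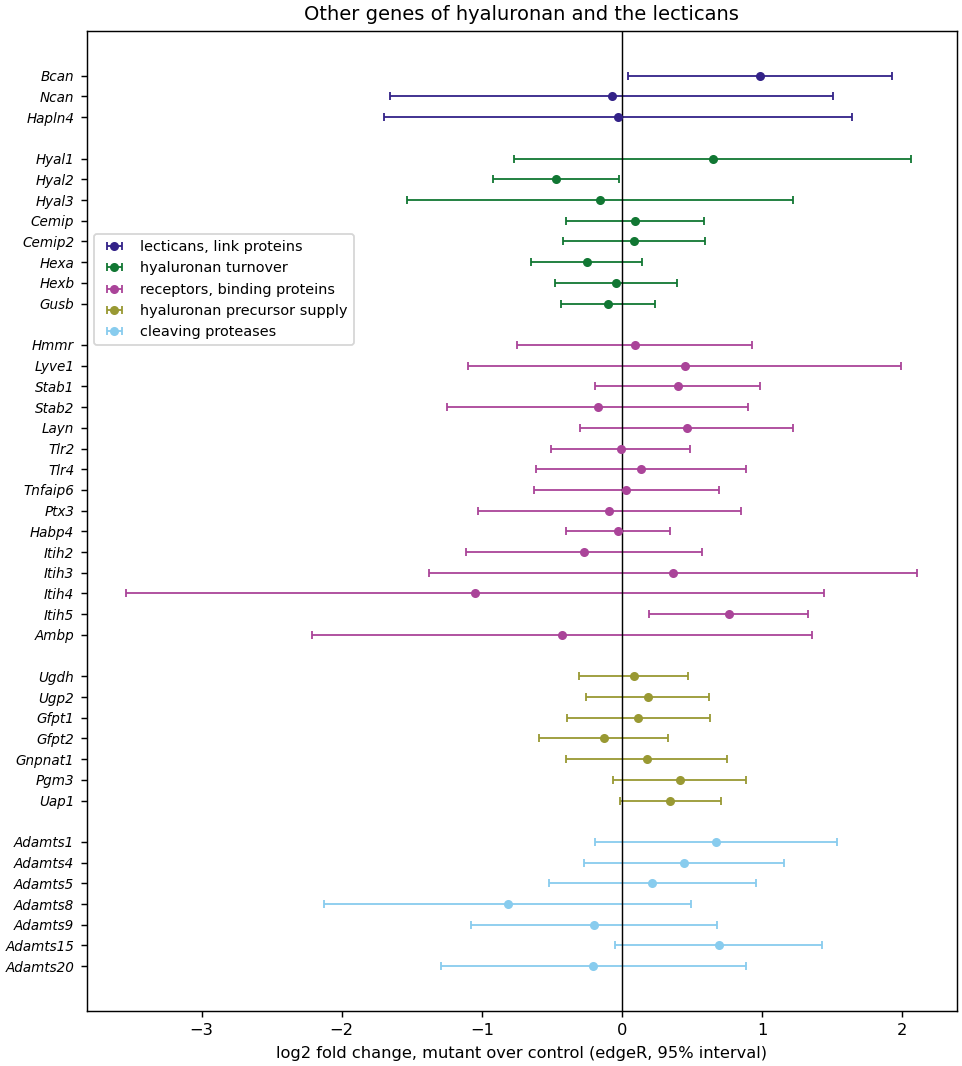
Log2 fold change, mutant over control, with the 95% interval from edgeR for the 40 tested genes outside the 9, coloured by group. The intervals of Bcan and Itih5 lie above 0, that of Hyal2 lies below 0, and all others cross it.

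Across the 6 libraries, the genes whose log2 CPM followed Acan most closely among 7157 others with a mean of at least 20 CPM were Sp7 (Pearson r = 0.98), Runx3 (0.97), Rgma (0.97), Gm16126 (0.97) and Emc7 (0.97). Sp7 is a transcription factor of osteoblasts and hypertrophic chondrocytes, and Runx3 a transcription factor of maturing chondrocytes. Their log2 fold changes were -0.41 for Sp7 (unadjusted p = 0.162 by edgeR) and -0.78 for Runx3 (unadjusted p = 0.018, adjusted p = 0.676). Prg4 was followed most closely by Lrpap1 (r = 0.99), Ndufa2 (0.99) and Psma7 (0.98), none of them a listed marker of superficial cartilage or synovial lining. Of those markers, Gdf5, Clic5, Creb5 and Vcam1 had group means under 20 CPM and could not appear. The 6 points behind each correlation share the pools and their scaling, and the correlations are a description. Among the 9 genes themselves, Acan correlated at -0.82 with Cd44, -0.70 with Has1, 0.57 with Hapln1 and -0.36 with its neighbour Hapln3 over the same 6 libraries.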

How the data were processed

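Poly(A) RNA from 6 pools of IVDs was sequenced in paired ends with a kit that does not mark strand. The authors deposited raw counts per gene symbol, 1 file per library, with no normalization. The study's methods name Cutadapt, FastQC, HISAT2 and GRCm38, the submitters' processing notes name STAR 2.5.3a, HTSeq and DESeq2, and the strand setting of the counting is not given in the sources used here. A deposited table of the authors' own comparison (fold changes, p-values and counts divided by size factors for genes they selected) was not used. Counts on genes were 40.4% to 44.2% of entries in the files, with 39.4% to 43.3% outside genes and 12.0% to 18.9% not aligned. These rows name no gene and were left out.

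The comparison used edgeR 4.0.16 (R 4.3.3): TMM, filterByExpr with a count minimum of 10, the quasi-likelihood test, Benjamini-Hochberg adjustment over 16152 genes, and a threshold of 0.05. The SE is the log2 fold change divided by the square root of F. Ratios had 0.5 added to each count. Scripts were tested on simulated data. Exonic lengths are unions over GENCODE M21 transcripts, which understates genes that use a short isoform. Alternatives were RLE size factors, library totals, all genes unfiltered, a block on the replicate number, DESeq2 1.42.0, limma-voom (limma 3.58.1) with quality weights, leaving out each library, and, for ratios, 1 added to each count.

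The 9 genes and all gene lists were chosen with earlier results of these data known. Named are the 9 genes, listed genes at an unadjusted p under 0.05 or highest per length, the 5 genes most like Acan and 3 most like Prg4, overlapping genes on the opposite strand, and Gpr126.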

Additional observations from a re-analysis of the deposited data

How the results depend on the processing

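Of 108 values of the 9 log2 fold changes under other settings, 83 kept their direction and side of an unadjusted p of 0.05, 19 no longer passed it, 3 newly passed it and 3 turned. No member passed at an adjusted p under 0.05 in any setting, where the lowest was 0.139, for Hapln3 without control replicate 1. The values that turned were for Has3, -0.041 with library totals and -0.057 to 0.22 over left-out libraries. The log2 ratio differences ranged from -0.27 to 0.29 for Vcan to Acan, -0.27 to 0.049 for Hapln1 to Acan and -0.50 to 0.25 for Prg4 to Acan with 1 library left out, but only from 0.79 to 1.03 for Hapln3 to Hapln1 and from 0.54 to 0.81 for Has3 to Has2. Members at an unadjusted p under 0.05 numbered 2 with library totals, 2 with the replicate block and 0 to 5 over left-out libraries. Listed genes outside the 9 numbered 5 with no filter on low counts, 6 with limma-voom and 1 to 6 over left-out libraries. All genes at an unadjusted p under 0.05 numbered 1164, 2276 with no filter and 618 to 2427 over left-out libraries. At an adjusted p under 0.05 there were 1 in edgeR, 245 with no filter, 58 with DESeq2, 0 with the replicate block (1002 at an unadjusted p under 0.05), 0 with limma-voom (1476) and 0 to 31 over left-out libraries. The cause of these shifts was not tested.

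Deviations of same-numbered pools correlated at 0.16, -0.13 and 0.10 over 16152 genes, and those of differently numbered pools at -0.26 to 0.18. With 3 pools per group, these values cannot decide whether the replicate numbers pair the pools. With the replicate block Has1 was at 0.88 (unadjusted p = 0.0894 by edgeR) and Has2 at -0.59 (unadjusted p = 0.0507). For the 5 ratios the blocked difference equals the unblocked one by construction, and the sign-flip test cannot give less than 0.25.

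Alternatives for Bcan, Hyal2 and Itih5 were added after seeing the data. Itih5 passed in all except without mutant replicate 3 (unadjusted p = 0.0787 by edgeR), and Bcan and Hyal2 lost the threshold in 6 settings each. Has1 and Has2 had the fewest counts of the 9 genes, 54 to 182 per library, and Has1 had the largest SE.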
